A study of Mus musculus with 12 samples.

Results

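The genes described here are the 12403 nuclear genes expressed in kidneys of lean mice in which GABP was to be raised and of lean mice given vehicle. A gene was kept when its FPKM (its fragment count divided by its exon length and by all fragments of the library) was at least 0.3 in at least 3 of the 6 libraries of these groups, which left 12403 of the 21886 nuclear genes in the deposited table. Of these, 203 reached 0.3 FPKM in all 3 libraries labelled db/m-GABP-OE and in no vehicle library, and 10 did so the other way round. The study sequenced poly(A) RNA of mouse kidney in 4 groups of 3 libraries, 12 in all. The db/m mice are lean heterozygous carriers of the leptin receptor mutation, and the db/db mice of the other groups carry it on both copies, which leads to obesity and diabetes. Both groups compared here are db/m: db/m-veh mice received vehicle, and db/m-GABP-OE mice were labelled as overexpressing GABP. The sources used here do not say how GABP was raised, in which cells, what the vehicle was, or how old the mice were. Kidneys of 6 mice were used per group, with 3 tissues mixed for each extraction, so 3 separate pools would have to share mice. The sources also leave unsaid whether the 3 libraries are separate pools, and p-values then measure only the spread between libraries.

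GABP (GA-binding protein, also called nuclear respiratory factor 2) is a transcription factor of the ETS family. Its alpha subunit, encoded by Gabpa, binds DNA, and its beta subunits, encoded by Gabpb1 and Gabpb2, activate transcription. Known targets include nuclear genes for the respiratory chain, for mitochondrial ribosomes and for copying mitochondrial DNA, which matter in kidney because the tubules depend on oxidative metabolism. The series is titled for Gli1, the transcription factor that Hedgehog signalling switches on, as the target gene of GABP.

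The vehicle libraries held 6.81 M to 9.33 M fragments and the libraries labelled db/m-GABP-OE (OE libraries from here on) 8.58 M to 9.70 M. Fragments on the 13 mitochondrially encoded genes made up 67.9%, 77.8% and 69.8% of the vehicle libraries and 64.2%, 59.97% and 58.6% of the OE libraries, which left 1.51 M to 2.94 M and 3.23 M to 3.88 M fragments on nuclear genes. The mitochondrial share was lower in every OE library than in every vehicle library. On summed FPKM the share was lower by 8.06 percentage points (a difference of -8.06, exact two-sided permutation p = 0.1, the smallest that 3 against 3 allows). FPKM divides by all fragments, so nuclear genes as a whole sat higher in the OE libraries: over the 12403 genes the log2 fold change had a median of 0.39 as deposited. After median-of-ratios scaling, which sets the typical nuclear gene equal between libraries (factors 0.824 to 1.08 for vehicle and 1.26 to 1.33 for OE libraries), it was 0.04. Every result is therefore given on both scales, and the part of the mitochondrial share in the results was not tested beyond that scaling. Kidney identity showed in both groups: the proximal tubule phosphate transporter Slc34a1 measured 187 to 698 FPKM in vehicle and 265 to 391 FPKM in OE libraries, and the loop of Henle gene Umod measured 12.4 to 24.8 and 33.5 to 56.0 FPKM.

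Gabpa (chr16:84834925-84863779, plus strand, GRCm38) measured 1.79, 2.32 and 2.54 FPKM in vehicle libraries 1 to 3 and 3.45, 3.35 and 3.71 FPKM in OE libraries 1 to 3. The groups did not overlap, and the ratio of means was 1.58 (exact permutation p = 0.1). After median of ratios the values were 1.83, 2.82 and 2.34 against 2.73, 2.57 and 2.79, the groups overlapped, and the ratio was 1.16 (exact permutation p = 0.4). With all libraries set to an equal sum over nuclear genes the ratio was 1.03 (exact permutation p = 1). In the model over all genes Gabpa was not called (a log2 fold change of 0.57 with SE 0.33, limma adjusted p = 0.43 as deposited). Gabpb1 measured 1.28, 0.852 and 1.10 FPKM against 1.76, 1.69 and 2.31 FPKM, and Gabpb2 0.375, 0.361 and 0.706 against 0.730, 0.833 and 0.678 FPKM. Neither beta subunit gene was called (limma adjusted p = 0.47 for Gabpb1 and 0.51 for Gabpb2). Gabpa RNA thus separated the groups as deposited and not after scaling, and directions below are those of the libraries labelled db/m-GABP-OE.

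Expression was tested with limma on log2(FPKM + 0.5), and a gene was called at a Benjamini-Hochberg adjusted p under 0.05 over all genes tested. As deposited, 244 of the 12403 genes were called (1.97%), 237 of them higher (1.91%) and 7 lower (0.0564%) in the OE libraries. After median of ratios 27 were called (0.218%), 21 higher (0.169%) and 6 lower (0.0484%), and all 27 were among the 244. The called rises ran from 0.81 to 4.12 on the log2 scale with a median of 1.51, set against the all-gene shift of 0.39. Of the 237, 60 genes passed the expression minimum only through the OE libraries, as did 8 of the 21. Complete separation of the libraries was far more common than a call. As deposited, all 3 OE libraries lay above all 3 vehicle libraries for 30.9% of the genes and below them for 0.822%, and after median of ratios for 9.77% and 4.66%. The count of calls rested on single libraries: as deposited it was 78 without vehicle library 2, 39 without vehicle library 3, 41 without OE library 2 and 74 without OE library 3. As deposited 30 genes (28 higher, 2 lower) were called in all 6 such leave-out fits and 33 in none. After scaling 6 were called in all 6 fits, Ccl8, Retnla, H2-Eb1, H2-Aa, Mgl2 and Tpm3-rs7, so each other call after scaling was lost in at least 1 of them. Ccl8 and Retnla are among the 8 that passed the minimum only through the OE libraries.

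**Figure D1:**
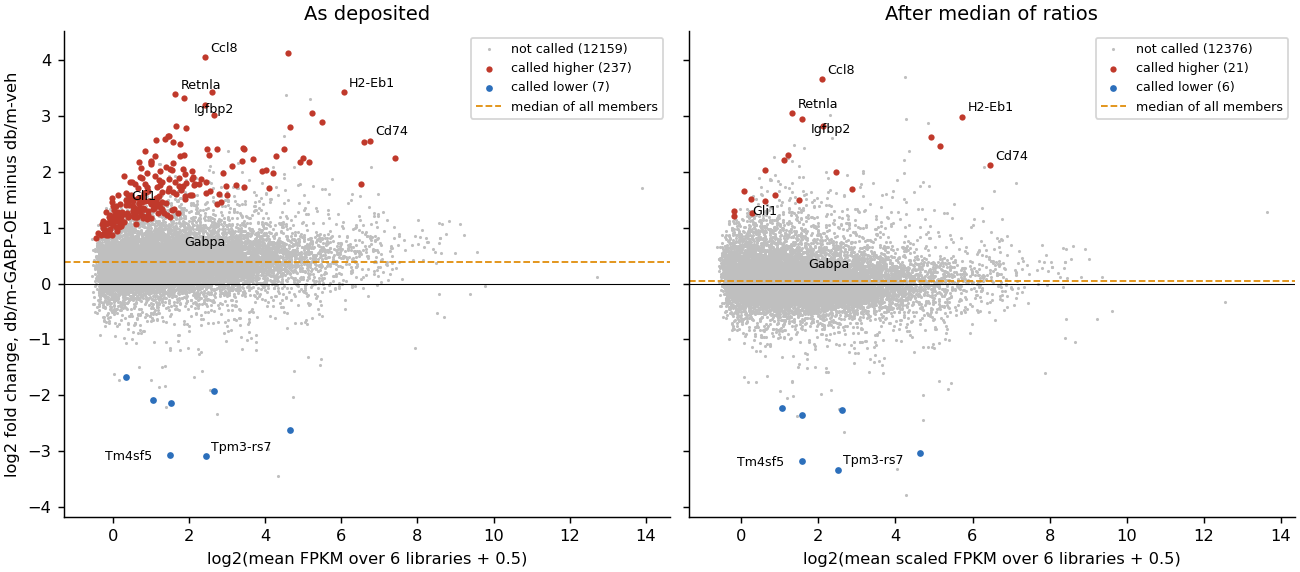
Log2 fold change of each of the 12403 genes (db/m-GABP-OE minus db/m-veh, y axis) against its mean level over the 6 libraries on a log2 scale (x axis), as deposited and after median of ratios. Red and blue dots are genes called higher and lower, and the dashed line is the median of all genes, which sits at 0.39 as deposited and at 0.04 after scaling.

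Of the 21 rises called on both scales, 7 belonged to lists of class II presentation, macrophages or T cells. Of the 8 listed genes of MHC class II presentation, 5 were among the 21, H2-Aa, H2-Ab1, H2-Eb1, H2-DMb1 and Cd74, and so were the macrophage marker Ms4a7 and the T helper cell receptor Cd4. A further 8, grouped here after their values were seen, are known from macrophages, dendritic cells or eosinophils: Ccl8, Retnla, Mgl2, Itgax, Itgb2, Cd209a, Ear2 and Prg2. The other 6 were Igfbp2, Mettl7a2, Cox8b, Cnbd2, Bcat1 and Coch. Ccl8, Cd4, Cox8b, Ear2, Igfbp2, Ms4a7, Prg2 and Retnla passed the expression minimum only through the OE libraries, where they are high, so they had to differ and their tests are given as a description. In bulk kidney tissue more cells of a type and more RNA per cell cannot be told apart.

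Major histocompatibility complex (MHC) class II molecules are built from an alpha and a beta chain, carried through the cell by the invariant chain Cd74, loaded with peptide by H2-DM, and shown on antigen-presenting cells to T helper cells. All 8 listed genes were measured, and 7 rose as deposited and 5 also after median of ratios. Over all genes 1.91% were called higher as deposited and 0.169% after scaling. Ciita, 1 of the 7, passed the expression minimum only through the OE libraries. The median log2 fold change of the 8 was 2.50 as deposited and 2.06 after scaling, against 0.39 and 0.04 for all genes. The summed level of the 8 genes was 53.0 to 82.7 FPKM in vehicle and 310.1 to 579 FPKM in OE libraries. The beta chain gene H2-Eb1 (chr17:34305867-34316674, plus strand) measured 15.5, 10.8 and 6.995 FPKM in vehicle libraries and 85.5, 161 and 120 FPKM in OE libraries. Its lowest OE library lay far above its highest vehicle library, and the log2 fold change was 3.42 (SE 0.40, limma adjusted p = 0.00061) as deposited and 2.99 (limma adjusted p = 0.0029) after scaling. The alpha chain gene H2-Aa (chr17:34282744-34287823, minus strand) measured 9.59, 6.68 and 6.09 FPKM against 44.1, 86.5 and 70.7 FPKM, a log2 fold change of 3.06 (SE 0.44, limma adjusted p = 0.0024) and, after scaling, of 2.62 (limma adjusted p = 0.0020). H2-Ab1, the other classical beta chain, measured 14.6, 6.40 and 9.34 FPKM against 46.0, 88.8 and 101 FPKM, again without overlap.

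The partners of the class II chains followed the same order of groups. Cd74 was the most abundant of the 8 at 38.2, 22.1 and 29.2 FPKM in vehicle libraries and 103, 199.6 and 255 FPKM in OE libraries (log2 fold change 2.56, limma adjusted p = 0.013 as deposited and 0.018 after scaling). H2-DMb1, a chain of the peptide loader, measured 2.41, 1.92 and 0.764 FPKM against 8.37, 11.3 and 12.3 FPKM (log2 fold change 2.41 and, after scaling, 1.99). Ctss, the protease that trims the invariant chain, measured 1.45, 3.998 and 3.71 FPKM against 18.1, 17.9 and 16.5 FPKM. It rose as deposited (limma adjusted p = 0.0039) and was not called after scaling (limma adjusted p = 0.088). Ciita, the master coactivator of class II transcription, measured 0.287, 0.139 and 0.247 FPKM against 0.952, 1.25 and 0.952 FPKM and was called as deposited only (limma adjusted p = 0.014, and 0.15 after scaling). H2-DMa was called on neither scale (limma adjusted p = 0.056 as deposited), at 0.729, 0.979 and 1.43 FPKM against 3.92, 6.49 and 3.07 FPKM. When each library was left out in turn, H2-Aa and H2-Eb1 stayed called in all 6 fits on both scales, and Ctss and H2-DMb1 in all 6 as deposited. H2-DMb1 after scaling was called in 3 of 6, with limma adjusted p of up to 0.12, and Ciita lost its call without vehicle library 2 or 3 or OE library 2 (up to 0.092). H2-Ab1 and Cd74 lost their call on both scales without vehicle library 2 or 3 or without OE library 2 or 3, with limma adjusted p of up to 0.077 for H2-Ab1 and 0.079 for Cd74 as deposited and of up to 0.19 and 0.13 after scaling. Counts of these H2 genes are uncertain where the authors' counting could not tell near-identical relatives apart.

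Class II promoters share a set of boxes on which the proteins that recruit CIITA assemble, and these boxes are shown because the class II genes moved together. In the RefSeq promoter table (GRCm38.p6), the letters TGATTGG (core of the Y box, either strand) and TGATGC (part of the X2 box, either strand) were searched in the 250 bases before to 50 bases after each gene's first base. TGATTGG is held by 8.995% and TGATGC by 12.5% of the 27025 promoters in the table. H2-Ob, a class II gene outside the list, also rose as deposited (0.244, 0.0818 and 0.119 against 1.05, 1.26 and 0.671 FPKM, limma adjusted p = 0.0099, lost without vehicle library 2 or 3 or OE library 2). H2-Ob passed the expression minimum only through the OE libraries, so it had to differ and its test is a description. The stretches from 110 to 31 bases before the gene of H2-Aa, H2-Eb1, H2-DMb1 and H2-Ob read as follows on the strand of the gene, with matches, none overlapping another, in capitals.
H2-Aa (chr17:34287854-34287933, minus strand): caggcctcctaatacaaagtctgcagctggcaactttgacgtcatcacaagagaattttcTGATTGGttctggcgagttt
H2-Eb1 (chr17:34305757-34305836, plus strand): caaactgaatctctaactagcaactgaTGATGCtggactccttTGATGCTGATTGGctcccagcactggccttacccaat
H2-DMb1 (chr17:34153081-34153160, plus strand): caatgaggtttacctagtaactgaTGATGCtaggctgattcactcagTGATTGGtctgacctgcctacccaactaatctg
H2-Ob (chr17:34238795-34238874, plus strand): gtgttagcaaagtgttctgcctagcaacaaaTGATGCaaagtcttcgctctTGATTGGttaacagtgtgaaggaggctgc
They were chosen for holding TGATTGG, which starts at positions -50, -61, -63 and -59 relative to the gene's first base, and 3 of the 4 hold TGATGC. Of the 8 listed class II genes 5 have a promoter in the table, of which 3 hold TGATTGG and 2 TGATGC, and H2-DMa and Ctss hold no TGATTGG in this window. With 62.5% matched, the search is void for the list as a whole. These matches are letters found in the reference genome and were not measured here as sites of binding. Not shown are Ciita, H2-Ab1 and Cd74.

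Macrophages, the resident phagocytes of the kidney, were read through 13 marker genes, of which 12 were measured, 2 of them only through the OE libraries. As deposited 6 rose (Cd74, Ms4a7, Mrc1, C1qc, Itgam and C1qa), beside 1.91% of all genes. Cd74 and Ms4a7 also rose after scaling, beside 0.169% of all genes. The median log2 fold change of the 12 was 1.74 as deposited and 1.37 after scaling. All 12 lay wholly above the vehicle libraries as deposited and 11 of 12 after scaling, Adgre1 being the exception, beside 30.9% and 9.77% of all genes. Ms4a7, a membrane protein of mature macrophages, measured 0, 0.0659 and 0.0240 FPKM in vehicle and 1.02, 0.833 and 1.02 FPKM in OE libraries (log2 fold change 1.46, limma adjusted p = 0.0022, and 0.025 after scaling). Mrc1, the mannose receptor, measured 0.549, 0.599 and 0.824 FPKM against 2.40, 2.70 and 3.47 FPKM (limma adjusted p = 0.013, and 0.12 after scaling). C1qa, a chain of the first complement component that tissue macrophages make, measured 3.57, 7.48 and 6.79 FPKM against 29.6, 54.3 and 48.0 FPKM (log2 fold change 2.80, limma adjusted p = 0.043, and 0.33 after scaling). The lysozyme gene Lyz2 was not called at 3.16, 10.6 and 5.61 FPKM against 43.2, 61.9 and 88.5 FPKM (limma adjusted p = 0.051). Cd163, below the expression minimum, had 3 fragments over the vehicle and 46 over the OE libraries. As deposited, Ms4a7 stayed called whichever library was left out (after scaling in 1 of 6 fits, limma adjusted p of up to 0.14). Ms4a7 passed the expression minimum only through the OE libraries, so it had to differ and its tests are a description. C1qa and Itgam were lost in every such fit (limma adjusted p of up to 0.17 and 0.12) and Mrc1 and C1qc without vehicle library 2 or 3 or OE library 2 or 3 (up to 0.066 and 0.084).

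A further 3 genes of the same cells, outside the marker list, were among the most separated in the whole comparison. Ccl8 (chr11:82115185-82116799), a chemokine that draws monocytes and other white cells, measured 0, 0.287 and 0 FPKM in vehicle and 9.32, 13.7 and 5.92 FPKM in OE libraries. That is 1 fragment against 137, a ratio per fragment sequenced of 127 (95% exact interval 22.4 to 5046, counting error only), and the log2 fold change on the log2(FPKM + 0.5) scale was 4.05 (SE 0.37, limma adjusted p = 3.8e-05) and, after scaling, 3.66 (limma adjusted p = 0.00093). Retnla (chr16:48842551-48844461), a secreted protein of alternatively activated macrophages, had 0 fragments in the 3 vehicle libraries and 87 in the OE libraries (2.40, 8.09 and 5.25 FPKM). Against a floor of 3 fragments over the vehicle group this is at least 26.9-fold higher, with limma adjusted p = 3.8e-05 as deposited and 0.00056 after scaling. Retnla was at 0 in all 6 db/db libraries too. Mgl2, a lectin of macrophages and dendritic cells, measured 0.783, 0.0701 and 0.102 FPKM against 4.76, 4.13 and 3.89 FPKM (a log2 fold change of 2.64 with SE 0.29, limma adjusted p = 0.00028, and 0.0030 after scaling). These 3 genes stayed called on both scales whichever library of the 6 was left out. Ccl8 and Retnla, however, passed the expression minimum only through the OE libraries. They had to differ, so their tests and leave-out fits are a description. Of the dendritic cell genes, Itgax measured 0.341, 0.122 and 0.468 FPKM against 1.75, 3.03 and 2.11 FPKM and Cd209a 0.345, 0 and 0.338 FPKM against 1.68, 1.69 and 1.25 FPKM, both called on both scales and, as deposited, in all 6 leave-out fits. After scaling Itgax was called in 0 and Cd209a in 1 of the 6 (limma adjusted p of up to 0.26 and 0.20). The eosinophil genes Ear2 and Prg2, encoding a granule ribonuclease and the major basic protein, had 1 and 0 fragments in the vehicle libraries and 51 and 22 in the OE libraries, and Prg2 was at least 6.79-fold higher against the same floor.

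**Figure D2:**
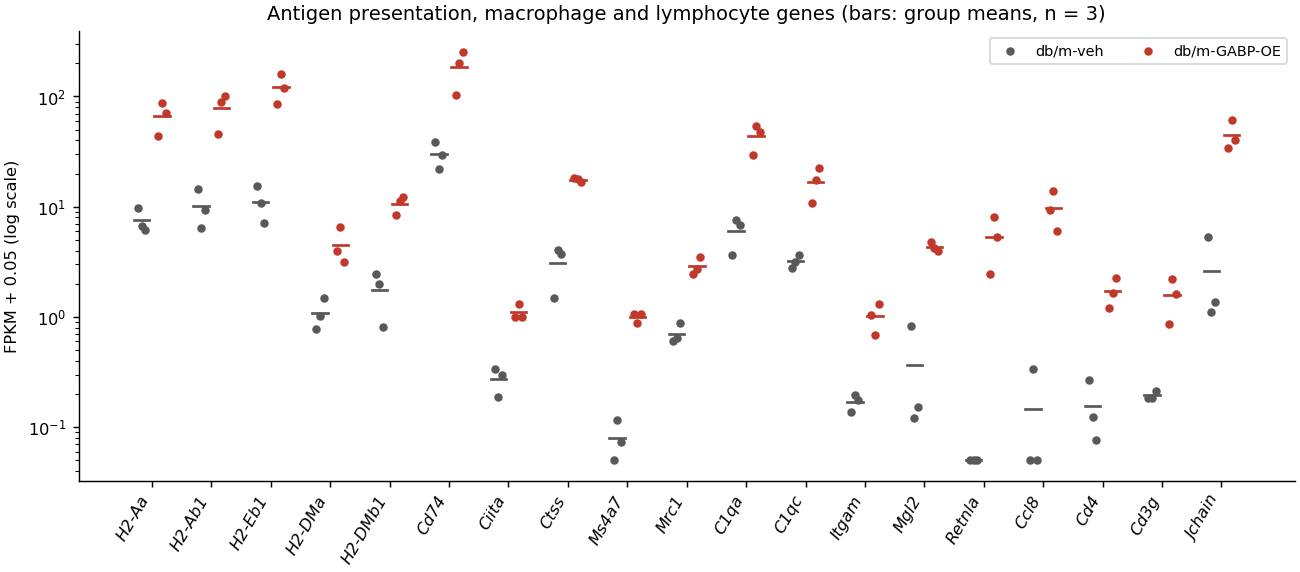
FPKM as deposited plus 0.05 on a log axis for genes of antigen presentation, macrophages and lymphocytes in each of the 3 db/m-veh (grey) and 3 db/m-GABP-OE (red) libraries, with bars at the group means. No gene shown has an OE library at or below a vehicle library, and Retnla is at 0 in all 3 vehicle libraries.

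Lymphocyte markers were sparse. Of 14 T and natural killer cell genes 8 were measured, 4 of them only through the OE libraries. As deposited Cd4, Cd3g, Cd8b1 and Lck rose, beside 1.91% of all genes. Cd4 rose on both scales, beside 0.169% of all genes after scaling. Cd4 measured 0.217, 0.0728 and 0.0266 FPKM in vehicle and 1.15, 1.58 and 2.22 FPKM in OE libraries (log2 fold change 1.81, limma adjusted p = 0.0013, and 0.015 after scaling), although macrophages also express it, and after scaling the call held in 2 of 6 leave-out fits (limma adjusted p of up to 0.098). Cd3g, a chain of the T cell receptor complex, measured 0.134, 0.135 and 0.164 FPKM against 0.813, 2.18 and 1.57 FPKM (limma adjusted p = 0.0087, and 0.11 after scaling). Like Cd4, Cd3g passed the expression minimum only through the OE libraries, so both had to differ and their tests are a description. Cd8a overlapped between groups (0.691, 0.323 and 0.442 against 0.548, 0.963 and 0.576 FPKM), and Klrb1c had no fragment in either group. Cd3g lost its call without OE library 2 (limma adjusted p = 0.058), and Cd8b1 and Lck without OE library 2 or vehicle library 3 (up to 0.052 and 0.079). Jchain, which joins the antibodies that plasma cells secrete, was the highest of all rises by the naming rule: 5.30, 1.05 and 1.32 FPKM against 34.1, 61.1 and 39.9 FPKM, a log2 fold change of 4.12 (SE 0.67, limma adjusted p = 0.0053). After scaling it was 3.70 and not called (limma adjusted p = 0.093). The B cell receptor gene Cd79a measured 1.20, 0.504 and 0.367 FPKM against 1.29, 3.32 and 3.68 FPKM without a call, and Ms4a1 was below the minimum with 4 fragments against 31. Neutrophil genes showed no call among 3 measured of 11, near the share over all genes (1.97% as deposited and 0.218% after scaling). Their median log2 fold change was 0.22 as deposited and -0.05 after scaling, and Ly6g had no fragment in either group.

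Inflammatory mediators, 20 measured of 23, held 5 rises as deposited (Cxcl10, Ccl5, Ccl2, Vcam1 and Cxcl12), beside 1.91% of all genes. None was called higher after scaling, near the 0.169% of all genes. Their median log2 fold change was 1.25 as deposited and 0.95 after scaling. Cxcl10, a chemokine for activated T cells, measured 1.26, 0.195 and 0.523 FPKM against 3.20, 4.76 and 4.08 FPKM (limma adjusted p = 0.014, and 0.081 after scaling). Ccl5 measured 0.228, 1.07 and 1.00 FPKM against 5.65, 7.08 and 3.88 FPKM (limma adjusted p = 0.013, and 0.15 after scaling). After scaling, 16 of the 20 lay wholly above the vehicle libraries, as did 9.77% of all genes. The cytokine genes Tnf (0.0667, 0 and 0.196 against 0.676, 1.45 and 0.497 FPKM) and Il1b (0.0573, 0.385 and 0.955 against 0.871, 1.08 and 0.855 FPKM) were not called. Ccl2 lost its call in every leave-out fit (limma adjusted p of up to 0.13). Ccl5 lost it without vehicle library 3 or OE library 2 (up to 0.079), Cxcl10 without vehicle library 2 or 3 or OE library 2 or 3 (up to 0.086), and Vcam1 and Cxcl12 in all such fits but 1 (up to 0.22 and 0.26).

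Among interferon-stimulated genes 22 of 24 were measured, and Gbp3, Gbp7 and Isg15 rose as deposited, beside 1.91% of all genes. None was called higher after scaling, near the 0.169% of all genes. The list's median log2 fold change was 1.01 as deposited and 0.63 after scaling. Gbp3, a guanylate-binding protein of cell-autonomous defence, measured 1.71, 1.53 and 1.18 FPKM against 4.82, 8.43 and 5.74 FPKM (limma adjusted p = 0.017, and 0.20 after scaling). Isg15, a ubiquitin-like modifier, measured 2.64, 2.50 and 3.20 FPKM against 5.99, 9.09 and 15.4 FPKM. Of 17 complement genes 14 were measured, with C1qc, Cfd and C1qa called higher as deposited and none after scaling, beside the same shares. C3, the central component, overlapped between groups at 1.93, 4.05 and 8.20 against 7.51, 14.3 and 11.1 FPKM. In leave-out fits Gbp3 and Gbp7 lost their calls without vehicle library 2 or 3 or OE library 2 or 3 (limma adjusted p of up to 0.12 and 0.15) and Isg15 in all but 1 fit (up to 0.18).

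Extracellular matrix genes sat higher. All 31 listed were measured, with a median log2 fold change of 1.14 as deposited and 0.72 after scaling. As deposited 4 rose, Mmp2, Timp1, Lox and Col3a1, beside 1.91% of all genes, and after scaling none, beside 0.169%. As deposited 24 of the 31 lay wholly above the vehicle libraries and after scaling 12, beside 30.9% and 9.77% of all genes. Mmp2, a gelatinase that cuts basement membrane, measured 1.43, 2.00 and 1.56 FPKM in vehicle and 6.997, 6.39 and 7.43 FPKM in OE libraries (log2 fold change of 1.79, SE 0.35, limma adjusted p = 0.013, and 0.32 after scaling). Col3a1, a fibrillar collagen of scars and vessel walls, measured 5.26, 12.9 and 3.02 FPKM against 29.0, 31.0 and 33.4 FPKM. The basement membrane collagens Col4a1 and Col4a2 overlapped between groups, at 36.7, 126 and 65.3 against 98.9, 72.8 and 64.0 FPKM and at 33.6, 79.2 and 46.4 against 65.0, 58.1 and 44.1 FPKM. Mfap4, a microfibril protein outside the list, rose as deposited at 1.37, 1.07 and 0.279 against 5.93, 13.1 and 13.6 FPKM (log2 fold change 3.03, limma adjusted p = 0.0087, and 0.078 after scaling). None of the 16 measured genes of epithelial to mesenchymal transition was called, which is near the share over all genes (1.97% as deposited and 0.218% after scaling). All 16 had a positive log2 fold change after scaling. As deposited 10 of the 16 lay wholly above the vehicle libraries and after scaling 6, beside 30.9% and 9.77% of all genes. Vim, the filament protein of mesenchymal cells, measured 14.5, 16.3 and 15.8 against 29.3, 36.3 and 39.1 FPKM. Mmp2 lost its call without vehicle library 3 or OE library 2 or 3 (limma adjusted p of up to 0.086), Mfap4 without vehicle library 3 or OE library 2 (up to 0.068), Timp1 in every leave-out fit, and Lox and Col3a1 in all but 1 (up to 0.25 and 0.26).

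Tubular injury genes, 12 measured of 13, included 3 rises as deposited, Havcr1, Timp1 and Vcam1, beside 1.91% of all genes. None was called higher after scaling, near the 0.169% of all genes. Havcr1, which encodes kidney injury molecule 1 and is shed by damaged proximal tubule cells, measured 0.189, 0.0635 and 0.371 FPKM against 1.53, 2.85 and 4.03 FPKM (log2 fold change 2.17, limma adjusted p = 0.038, and 0.25 after scaling). It lost its call in all leave-out fits but 1, with limma adjusted p of up to 0.17 without OE library 3. Lcn2, another secreted injury marker, overlapped between groups at 1.13, 2.85 and 4.74 against 2.70, 6.09 and 11.5 FPKM, as did the secreted phosphoprotein gene Spp1. Among cells of the nephron, 21 proximal tubule genes gave 1 rise (Slc22a7) and a median log2 fold change of 0.32 as deposited and -0.10 after scaling. Slc22a7, an organic anion transporter, measured 26.2, 9.57 and 6.12 FPKM against 38.8, 59.0 and 70.6 FPKM (limma adjusted p = 0.020, and 0.19 after scaling), and lost its call without vehicle library 2 or 3 or OE library 2 or 3 (up to 0.14). No gene was called among markers of the thick ascending limb, distal convoluted tubule, principal cells, intercalated cells, podocytes or endothelium. That is near the share over all genes (1.97% as deposited and 0.218% after scaling). The median of 9 principal cell genes was 0.08 as deposited and -0.34 after scaling.

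Some genes of fat were also higher, and the marker list is described because perirenal fat can travel with a kidney. Of 10 adipose markers 6 were measured, with Ucp1 and Cfd rising as deposited, beside 1.91% of all genes. None was called higher after scaling, near the 0.169% of all genes. Ucp1, the uncoupling protein of brown fat, measured 0.401, 0 and 0.0654 FPKM against 1.83, 2.96 and 0.783 FPKM, and Cfd, also called adipsin, 0.593, 0.796 and 0.116 FPKM against 8.77, 17.2 and 6.06 FPKM (limma adjusted p = 0.013 and 0.036 as deposited, 0.087 and 0.24 after scaling). Adipoq, which encodes the fat hormone adiponectin, was at 0 in all 3 vehicle libraries and measured 0.802, 0.672 and 0.843 FPKM in OE libraries without a call. Cidea measured 0.490, 0 and 0 FPKM against 0.497, 1.11 and 1.04 FPKM, Fabp4 3.51, 10.9 and 7.13 against 12.4, 11.1 and 11.1 FPKM, and Plin4 overlapped between groups, none of them called. Below the minimum, Cidec had 1 fragment against 32, Plin1 2 against 17 and Retn 1 against 4. The summed level of the 6 genes was 5.28 to 12.3 FPKM in vehicle and 20.3 to 33.4 FPKM in OE libraries, Lep had no fragment in either group, and the part of fat tissue in the results was not tested. Cox8b, a cytochrome oxidase subunit of brown fat and muscle, had 0 fragments in vehicle and 14 in OE libraries, at least 4.32-fold higher against a floor of 3 fragments. It was called on both scales, though after scaling in only 2 of 6 leave-out fits (limma adjusted p of up to 0.12). Cox8b passed the expression minimum only through the OE libraries, so it had to differ and its tests are a description. Cfd lost its call in every leave-out fit (limma adjusted p of up to 0.17) and Ucp1 without vehicle library 2 or 3 or OE library 2 (up to 0.086). Of markers of other neighbouring tissue, 5 of 8 adrenal genes, Cyp11b1 among them, and 3 of 8 skeletal muscle genes, Acta1 among them, had no fragment in either group. Genes of unrelated lists, Mt2, S100a4 and Tomm6, had none either, and the part of the counting in such zeros was not tested. Red blood cell genes, 6 measured of 8, were lower without a call, with a median log2 fold change of -0.82 as deposited and -1.18 after scaling.

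**Figure D3:**
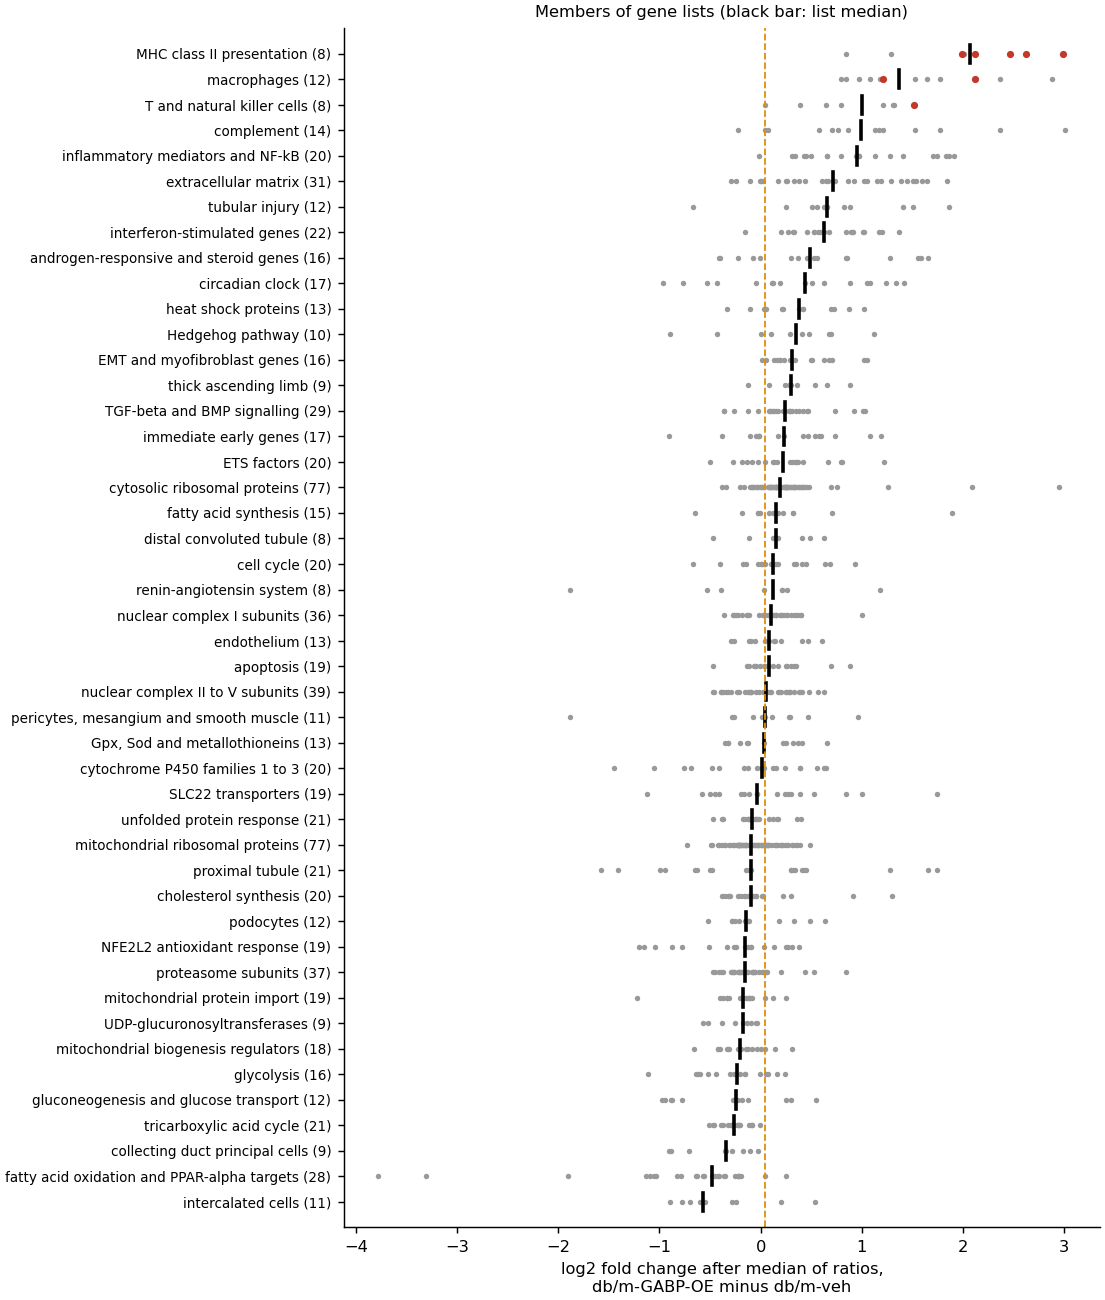
Log2 fold change after median of ratios (x axis) of each measured gene in the gene lists with at least 8 measured genes (rows, number measured in parentheses), with called genes in red, a black bar at each list's median and a dashed line at the median of all 12403 genes. MHC class II presentation, macrophages, T and natural killer cells and complement have the highest medians (2.06, 1.37, 1.00 and 1.00), and fatty acid oxidation and intercalated cells the lowest (-0.48 and -0.57).

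Further named rises belonged to no list. Igfbp2, which binds insulin-like growth factors in the circulation, measured 0.0592, 0.238 and 0.174 FPKM in vehicle and 4.02, 6.53 and 8.13 FPKM in OE libraries (7 fragments against 313, a log2 fold change of 3.31 with SE 0.41, limma adjusted p = 0.00097, and 0.0079 after scaling). It stayed called as deposited whichever library was left out, and after scaling in 4 of 6 fits (limma adjusted p of up to 0.068). Igfbp2 passed the expression minimum only through the OE libraries, so it had to differ and its tests are a description. Mettl7a2, a methyltransferase-like gene with near-identical neighbours and so uncertain, measured 2.55, 0.0813 and 0 FPKM against 6.997, 5.94 and 13.8 FPKM (limma adjusted p = 0.0045, and 0.045 after scaling). Aoc1, the diamine oxidase that breaks down histamine and polyamines, measured 0.336, 0.270 and 0.691 FPKM against 3.64, 8.32 and 6.44 FPKM (limma adjusted p = 0.0089, and 0.11 after scaling). It lost its call without OE library 2 (limma adjusted p = 0.058). Lypd2 measured 0.644, 0 and 0.158 FPKM against 2.94, 3.64 and 8.74 FPKM, and H2-M2, a nonclassical class I gene, 0.141, 0 and 0 FPKM against 0.785, 4.45 and 4.73 FPKM, both called as deposited only. H2-M2 passed the expression minimum only through the OE libraries, so it had to differ and its test is a description. Lypd2 lost its call without vehicle library 2 or 3 or OE library 3 (limma adjusted p of up to 0.058), and H2-M2 without vehicle library 3 or OE library 2 (up to 0.053). Among genes of steroid metabolism and androgen response, 16 of 16 measured, Cyp7b1 (9.04, 5.28 and 5.09 against 17.6, 20.3 and 50.4 FPKM) and Akr1c18 (9.15, 4.98 and 2.13 against 12.8, 14.7 and 44.7 FPKM) rose as deposited, beside 1.91% of all genes, and not after scaling, beside 0.169%. Both lost the call without vehicle library 2 or 3 or OE library 2 or 3, with limma adjusted p of up to 0.14 and 0.22.

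Only 7 genes fell, and 6 of them on both scales. Tpm3-rs7 (chr14:113314608-113316754), a tropomyosin-related sequence whose reads may be shared with Tpm3 and so uncertain, measured 4.23, 12.2 and 11.6 FPKM in vehicle and 0.464, 0.480 and 0.759 FPKM in OE libraries. Its log2 fold change was -3.08 (SE 0.45, limma adjusted p = 0.0026) as deposited and -3.33 (limma adjusted p = 0.00093) after scaling, and it was called in all 6 leave-out fits on both scales. Tm4sf5, a tetraspanin-like membrane protein of epithelia, measured 2.43, 5.48 and 6.00 FPKM against 0, 0.275 and 0 FPKM, which is 130 fragments against 3, a ratio of 0.0214 (95% exact interval 0.00435 to 0.0638). Its log2 fold change was -3.07 (SE 0.41, limma adjusted p = 0.0013, and 0.0059 after scaling). Tm4sf5 passed the expression minimum only through the vehicle libraries, where it is high, so it had to differ and its test is a description. Pianp, a ligand of the inhibitory receptor PILR-alpha known from neurons, measured 1.23, 2.37 and 5.30 FPKM against 0.117, 0.434 and 0.163 FPKM, and Fam25c, whose function is little known, 4.56, 6.11 and 18.9 FPKM against 1.36, 1.26 and 3.14 FPKM. Tff1, a trefoil peptide that protects mucous surfaces, measured 1.87, 1.67 and 0.762 FPKM against 0.315, 0 and 0 FPKM and was called as deposited only (limma adjusted p = 0.013, and 0.072 after scaling). The 2 other falls were the predicted genes Gm11361 (19.8, 30.2 and 81.1 against 3.28, 5.09 and 9.78 FPKM) and Gm10639 (1.63, 6.01 and 5.18 against 0.928, 0.288 and 0.325 FPKM), each called as deposited in 2 of 6 leave-out fits. Without vehicle library 3 the limma adjusted p was 0.078 for Pianp and 0.24 for Fam25c, Fam25c was lost in all leave-out fits but 1, Pianp also without OE library 3, and Tff1 without vehicle library 2 or OE library 2 or 3 (up to 0.079).

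Lower values in every OE library were found for 0.822% of all genes as deposited, most of them not called. The 5 described next are those uncalled genes that also separated after scaling, had a mean of at least 1 FPKM in vehicle libraries and the deepest falls at an unadjusted p under 0.01 on both scales. Cyp4a14, a fatty acid hydroxylase that the lipid-sensing receptor PPAR-alpha switches on, measured 14.7, 8.80 and 89.8 FPKM against 0.979, 1.15 and 3.58 FPKM (a log2 fold change of -3.44 with SE 0.99, limma adjusted p = 0.086, and 0.13 after scaling). Alox15, a lipoxygenase, had 66 fragments in vehicle and 0 in OE libraries, at least 23.8-fold lower against a floor of 3 fragments (0.713, 1.14 and 1.35 against 0, 0 and 0 FPKM, limma adjusted p = 0.072). Alox15 passed the expression minimum only through the vehicle libraries, so it had to differ and these values are a description. Hsd3b2, a steroid dehydrogenase with close relatives, measured 40.7, 35.7 and 42.9 FPKM against 12.4, 19.6 and 8.98 FPKM. The remaining 2 were the Wnt inhibitor Sfrp2 (7.01, 4.09 and 21.8 against 1.13, 1.48 and 1.35 FPKM) and the aldehyde dehydrogenase Aldh1a7 (2.81, 9.30 and 15.2 against 1.13, 1.95 and 1.97 FPKM). Vehicle library 3 held the highest value of all 5 of these genes.

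**Figure D4:**
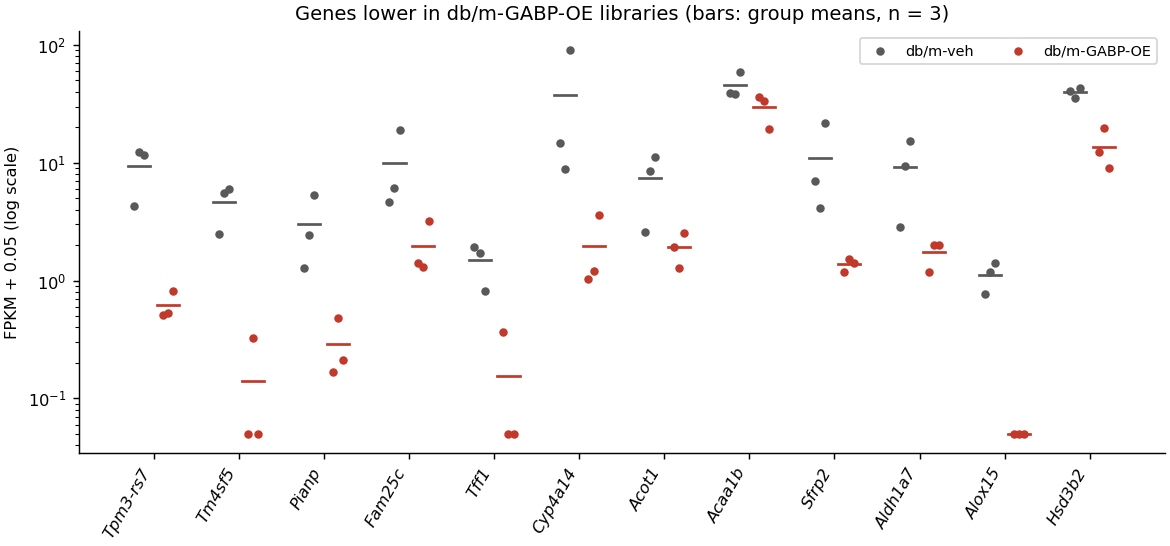
FPKM as deposited plus 0.05 on a log axis for genes lower in the db/m-GABP-OE libraries (red) than in the db/m-veh libraries (grey), with bars at the group means of 3 libraries. Tpm3-rs7, Tm4sf5, Pianp, Fam25c and Tff1 were called, and the others, including the fatty acid oxidation genes Cyp4a14, Acot1 and Acaa1b, were not.

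Cyp4a14 belongs to the list of fatty acid oxidation and PPAR-alpha targets, 28 measured of 29, in which no gene was called on either scale. That is near the share over all genes (1.97% as deposited and 0.218% after scaling). The median log2 fold change was -0.12 as deposited and -0.48 after scaling, beside 0.39 and 0.04 for all genes. After scaling 26 of 28 genes had a negative value, and 7 lay wholly below the vehicle libraries, as did 4.66% of all genes. Acot1, a thioesterase of acyl-CoA, measured 2.51, 8.46 and 11.1 FPKM against 1.86, 1.24 and 2.50 FPKM. Acaa1b, a peroxisomal thiolase, measured 39.0, 38.1 and 58.8 FPKM against 36.1, 33.5 and 19.3 FPKM. Acadm, the medium-chain dehydrogenase of mitochondria, overlapped between groups at 26.7, 52.1 and 38.5 against 39.2, 41.0 and 52.7 FPKM.

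The nuclear genes for mitochondria, the class in which GABP targets are known, held no call, beside 1.97% of all genes called as deposited and 0.218% after scaling, so after scaling 0 calls is near the share over all genes. No gene was called on either scale among 36 complex I subunits, 39 subunits of complexes II to V, 77 mitochondrial ribosomal proteins, 19 import proteins, 21 enzymes of the tricarboxylic acid cycle or 18 biogenesis regulators. As deposited their medians were 0.54, 0.46, 0.30, 0.25, 0.15 and 0.18 on the log2 scale, and after scaling 0.10, 0.05, -0.09, -0.17, -0.26 and -0.20, so the sign turned with the scale for the last 4. For the tricarboxylic acid cycle all 21 values were negative after scaling, and 4 genes lay wholly below the vehicle libraries, as did 4.66% of all genes. Tfam, which packages and transcribes mitochondrial DNA, measured 1.48, 2.61 and 2.80 FPKM against 2.64, 3.51 and 2.39 FPKM (limma adjusted p = 0.70). Twnk, the mitochondrial DNA helicase, measured 3.02, 2.49 and 4.03 FPKM against 2.62, 2.75 and 2.03 FPKM and, after scaling, lay lower in every OE library without a call (limma adjusted p = 0.43). Of 77 cytosolic ribosomal protein genes 1 rose as deposited, Rpsa, at 62.2, 13.9 and 21.7 against 112, 160 and 213 FPKM (limma adjusted p = 0.032, and 0.081 after scaling), which has processed copies in the genome and is uncertain. Its call was lost without vehicle library 2 or 3 or OE library 2 or 3 (limma adjusted p of up to 0.16).

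The core of the ETS site that GABP binds, CCGGAAGT on either strand, was searched in the same RefSeq promoters to set sequence beside these values. It is held by 4.31% of the 27025 promoters, by 8.73% of the promoters of the expressed genes described here (79.9% matched), by 5 of 16 matched biogenesis regulators (31.3%), 12 of 68 mitochondrial ribosomal proteins (17.6%), 3 of 17 import proteins (17.6%) and 1 of 32 complex I subunits (3.13%). For the genes called higher (76.4% matched), those called lower (57.1%), complexes II to V and all expressed genes the search is void, since under 80% had a promoter in the table. The 5 biogenesis promoters are shown around the match because their genes serve the copying and reading of mitochondrial DNA and none was called, in GRCm38.p6 on the strand of the gene, with the core in capitals and the Twnk core as its reverse complement.
Mterf1a (chr5:3893939-3893968, minus strand): ccaggccgaggCCGGAAGTcagccgttact
Polg (chr7:79466293-79466322, minus strand): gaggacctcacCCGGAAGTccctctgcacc
Tefm (chr11:80142144-80142173, minus strand): agcacacgaaaCCGGAAGTtgaggaggaac
Tfam (chr10:71238073-71238102, minus strand): cctgccgcggaCCGGAAGTccgggcttccc
Twnk (chr19:45006436-45006465, plus strand): actaaccggtgACTTCCGGttccggggttg
Mterf1a, a terminator of mitochondrial transcription, measured 1.15, 0.980 and 0.954 FPKM against 2.01, 0.918 and 0.852 FPKM. Polg, the mitochondrial DNA polymerase, measured 0.977, 1.16 and 1.81 FPKM against 1.71, 1.22 and 0.618 FPKM, and Tefm, an elongation factor, 2.37, 2.24 and 4.36 FPKM against 3.74, 2.76 and 2.45 FPKM. In these 3 genes the groups overlapped on the deposited scale.

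Hedgehog signalling runs from secreted ligands through the receptor Ptch1 and the transducer Smo to the Gli factors. Gli1 (chr10:127329882-127341974, minus strand) measured 0.241, 0.176 and 0.0643 FPKM in vehicle and 0.643, 1.09 and 2.38 FPKM in OE libraries, 20 fragments against 184, without overlap on either scale. It rose as deposited (a log2 fold change of 1.40 with SE 0.35, limma adjusted p = 0.049) and was not called after scaling (1.12, limma adjusted p = 0.31). Gli1 was below 0.3 FPKM in every vehicle library and passed the expression minimum only through the OE libraries, so it had to differ and its test is a description. No other of the 10 measured genes of 17 listed was called, beside 1.97% of all genes as deposited and 0.218% after scaling. The call was lost in 5 of 6 leave-out fits, by vehicle library 1, 2 or 3 or OE library 2 or 3 (limma adjusted p of up to 0.22). Ptch1, itself a target of the pathway, overlapped between groups at 0.524, 0.321 and 0.423 against 0.827, 0.545 and 0.369 FPKM, as did Smo at 3.99, 2.09 and 4.90 against 4.53, 5.68 and 7.91 FPKM. The ligand gene Ihh was not called at 7.07, 3.18 and 4.78 against 3.20, 3.48 and 2.90 FPKM, and the co-receptor gene Gas1 measured 3.14, 3.57 and 3.07 against 5.27, 7.45 and 10.9 FPKM. The other GLI genes were below the expression minimum, Gli2 with 2 fragments against 25 and Gli3 with 6 against 13. Also below it were Hhip with 8 fragments against 59, Shh with 9 against 40, Hhat with 16 against 56 and Kif7 with 18 against 49. Dhh, below it too, went the other way with 11 against 9. Of the 10 measured genes, 8 had a log2 fold change above 0 after scaling and 2 below. Their median was 0.64 as deposited and 0.35 after scaling.

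**Figure D5:**
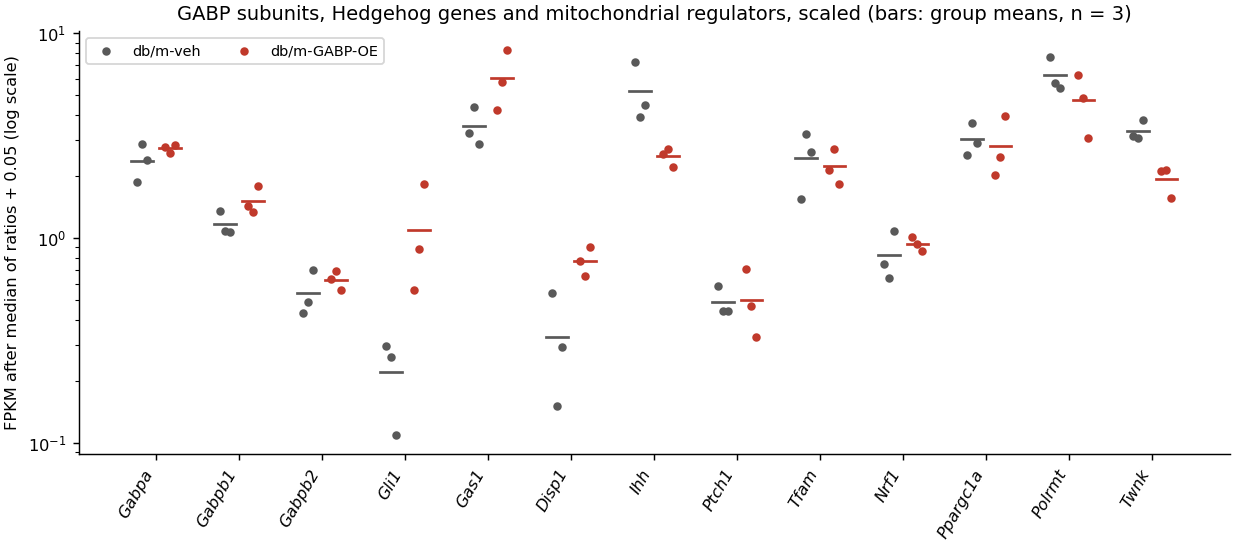
FPKM after median of ratios plus 0.05 on a log axis for the GABP subunits, Hedgehog genes and regulators of mitochondrial genes in the 3 db/m-veh (grey) and 3 db/m-GABP-OE (red) libraries, with bars at the group means. Gabpa overlaps between the groups (1.83 to 2.82 against 2.57 to 2.79), whereas Gli1 does not, and no gene shown was called on this scale.

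Set beside the diabetic groups of the series, the called genes mostly stood apart from all other libraries. For 198 of the 237 genes called higher, each OE library was above each of the 9 other libraries, as were 9.93% of all 12403 genes, and the choice of the called genes fixes part of this. H2-Eb1, for example, measured 2.34 to 12.6 FPKM over the 6 db/db libraries and Ccl8 0 to 0.577 FPKM. H2-Ab1, Cfd and Aoc1 were among the exceptions, with db/db libraries reaching 49.1, 11.03 and 4.80 FPKM. For 5 of the 7 genes called lower each OE library was below each of the other 9, as were 0.218% of all 12403 genes. The choice of the called genes fixes part of this too. Tpm3-rs7 measured 10.3 to 47.5 FPKM in the db/db libraries. Tff1 differed, at 0 to 0.556 FPKM there.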

How the data were processed

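RNA of mouse kidney was sequenced as paired ends after oligo(dT) selection, per the labels' protocols. The values are FPKM per gene and library, deposited by the authors in 1 table. The submitters' processing notes list HTSeq and GRCm39, and the sources used here name no aligner, annotation or strand setting. Multiplied by GENCODE M21 exon lengths (GRCm38, from which coordinates come), 98.0% to 98.2% of values gave whole fragments within 0.05, which supplied the fragment counts. Floors of 3 fragments and 95% intervals cover counting error only.

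The test was limma 3.58.1 (R 4.3.3) on log2(FPKM + 0.5) with a trended variance over all 12 libraries, 1 mean per group, two-sided, with Benjamini-Hochberg adjustment over 12897 genes with FPKM of at least 0.3 in 3 or more libraries, called under 0.05. Fold changes on this scale understate those of low genes. The same fit was made after median-of-ratios scaling over 5872 nuclear genes above FPKM 1 in every library. Over all 12897 genes 245 were called as deposited (1941 at unadjusted p under 0.05) and 27 after scaling (968). Tables and figures used Python 3.11.15, numpy 2.4.6, pandas 2.3.3, scipy 1.17.1 and matplotlib 3.10.9. On simulated data with 12611 genes for this comparison the fit called 17.9% of 2-fold, 89.6% of 4-fold and 100% of 8-fold changes, with 11 false calls. Those changes were placed only in genes with many fragments, with the same spread for every gene and no difference in mitochondrial share. The real called rises had a median vehicle level of 0.44 FPKM, against 2.04 FPKM for all genes. The simulated rates therefore do not carry over to low genes or to the spread of these libraries.

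Genes, gene lists and tests were chosen with earlier results of these data known. Named genes were the GABP subunits, Gli1, and the 15 highest rises and all falls that were called, did not overlap on either scale and averaged FPKM 1 or more in the higher group, leaving out predicted genes, with uncalled falls added at unadjusted p under 0.01, and members of each list. Further names were chosen after their values were seen. Other scalings, pseudocounts, filters, variance models, sets of libraries, a replicate block and voom on recovered fragments were tried. Some genes are not reported here.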

Additional observations from a re-analysis of the deposited data

How the results depend on the processing

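Counts below are genes called, then called higher and called lower, against 244, 237 and 7 as deposited. Median of ratios gave 27, 21 and 6, an equal nuclear sum 15, 12 and 3, and quantile normalization 23, 18 and 5. A pseudocount of 0.1 gave 62 and 57, a minimum of FPKM 1 in 3 libraries 159 and 153, a mean of 1 over the 6 libraries 157 and 151, and a variance without trend 123 and 117. Library weights gave 2676, 2531 and 145, and only the 2 groups compared 588, 564 and 24, or 98, 77 and 21 after median of ratios. Leaving out single libraries gave 39 to 270, 36 to 259 and 3 to 11 as deposited, and 7 to 74 (16 and 9 without OE library 1 or 2), 5 to 57 (8 and 14 without vehicle library 2 or OE library 1) and 2 to 17 after median of ratios. Chosen after seeing the data, the fit without db/db-GABP-KD replicate 1 gave 556, 538 and 18, or 77, 62 and 15 after median of ratios. Also chosen after seeing the data, voom on recovered fragments gave 66, 62 and 4, with the total scaling of FPKM 65, 61 and 4, and with median of ratios 7, 5 and 2. The cause of these shifts was not tested. Same-numbered libraries did not deviate together (correlations 0.07, -0.06 and -0.02). With 3 libraries per group these correlations cannot exclude a pairing by number. With the replicate block 276, 269 and 7 genes were called, and 17 and 12 after median of ratios. Of 891 values of the 29 named genes over the alternatives, 661 kept their direction and side of the threshold, 204 lost their call, 26 gained one and 0 reversed. Except for the GABP subunits and Gli1, these genes were chosen for groups that do not overlap on either scale. That choice largely fixed their direction in advance. The ratio of mean Gabpa FPKM ran from 1.44 to 1.70 and the difference in mitochondrial share from -9.88 to -6.02 percentage points with single libraries left out. Depth limits precision: the libraries held 1.51 M to 3.88 M nuclear fragments each, and which changes were missed at each expression level was not tested.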

Other observations

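Single genes of other groups also rose as deposited, beside 1.91% of all genes, and none of them after scaling, beside 0.169%. Scd1, the desaturase that makes monounsaturated fatty acids, was the 1 called gene among 15 of fatty acid synthesis, at 1.63, 1.62 and 1.03 FPKM in vehicle and 7.76, 7.65 and 11.7 FPKM in OE libraries (limma adjusted p = 0.013, and 0.18 after scaling). It lost its call without vehicle library 3 or OE library 2 or 3. Mki67, a marker of dividing cells, was the 1 called among 20 measured cell cycle genes, at 0.304, 0.160 and 0.128 against 1.01, 1.24 and 1.04 FPKM (limma adjusted p = 0.013, and 0.097 after scaling), and lost its call without vehicle library 2 or 3 or OE library 2. After scaling 14 of these 20 genes had a log2 fold change above 0 and 6 below. Below the expression minimum, Top2a had 9 fragments against 111 and Cdk1 3 against 55, while Bub1 went the other way with 8 against 7. Spi1, an ETS factor of myeloid and B cells, was the 1 called among 20 measured ETS factor genes, at 2.72, 1.85 and 1.91 against 5.79, 7.92 and 9.46 FPKM (limma adjusted p = 0.027, and 0.30 after scaling), and was lost without vehicle library 2 or 3 or OE library 2 or 3.

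Circadian clock genes, 17 measured of 18, held no call, which is near the share over all genes (1.97% as deposited and 0.218% after scaling). Their median log2 fold change was 0.78 as deposited and 0.44 after scaling, where 12 values were above 0 and 5 below. As deposited 8 lay wholly above the vehicle libraries and after scaling 6, beside 30.9% and 9.77% of all genes. Dbp, a clock output factor, measured 2.37, 2.06 and 1.00 FPKM in vehicle and 2.92, 14.2 and 9.14 FPKM in OE libraries (limma adjusted p = 0.092), and Nr1d2, a repressor of the clock, 4.02, 3.36 and 3.48 against 10.9, 14.1 and 8.85 FPKM (limma adjusted p = 0.24). The hour at which kidneys were taken was not analysed here.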
